A study of Mus musculus with 9 samples.

Results

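The genes described here encode the proteins of the cytosolic ribosome. They were chosen by symbol: Rpl or Rps followed by a number and at most 1 letter, together with Rpsa, Rplp0, Rplp1 and Rplp2, leaving out the S6 kinases and rows named as pseudogenes. The rule found 79 of the 12204 genes in the deposited table, of which 32 carry small-subunit and 47 large-subunit symbols. GENCODE M21 annotates 76 of them as protein-coding and 3 (Rpl6l, Rpl32l and Rps4l) as pseudogenes. Rpl28, Rpl3l, Rpl10l and Rpl39l also match the rule and are not analysed here. All 79 passed the filter on low values, which left 12196 genes in all.

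The cells were bone marrow-derived macrophages of C57/Bl6J mice, grown from marrow for 6 days with 20% supernatant of L929 cells, a fibroblast line that secretes the macrophage growth factor CSF1. There were 3 groups of 3 libraries. The untreated group received no agent. The LPS group received lipopolysaccharide, the bacterial ligand of Toll-like receptor 4, at 10 ng/ml for 4 h. The LPS + BMS group was given BMS303141, an inhibitor of ATP-citrate lyase, at 50 µM for 1 h and then the same LPS. The labels name no vehicle and no group with BMS303141 alone, and they give neither age nor sex. Nor do they say whether the libraries of a group came from separate mice or cultures, so each p-value reflects how far these 9 libraries scatter, and that scatter may be purely technical. Poly(A) RNA was sequenced from transcript 3′ ends, and a level below is the deposited log2 CPM (counts per M reads, where M is mega, quantile-normalised across the libraries), not divided by length.

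A ribosome is assembled from ribosomal RNA and 1 copy of nearly every ribosomal protein, so cells make these proteins in matched amounts. Most of their mRNAs are abundant, short and long-lived. In mammals they begin with a run of C and U at the cap, the 5′ terminal oligopyrimidine (TOP) motif, through which mTORC1 and the RNA-binding protein LARP1 control their translation. In macrophages LPS engages mTORC1 and changes which mRNAs are translated. ATP-citrate lyase makes cytosolic acetyl-CoA from citrate, which feeds lipid synthesis and histone acetylation.

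The cells carried macrophage RNA. All 10 macrophage markers were tested and 8 of them were lower with LPS. Of the markers of other cells, 3 of 10 neutrophil, 1 of 9 lymphocyte, 4 of 9 stromal and erythroid and 0 of 6 dendritic and mast cell genes were tested. Of the neutrophil genes Csf3r and S100a8 were higher with LPS, while Ly6g, Mpo and Elane have no row. The third tested neutrophil gene differed by -0.43 log2 with LPS and was not called. In LPS + BMS against LPS 1 of these 3 genes was called higher and 0 lower. The summed level of the 3 tested was 8.84 to 31.4 CPM untreated, 41.3 to 69 CPM with LPS and 184 to 272 CPM with LPS + BMS. The 4 stromal and erythroid genes summed to 6.09 to 14 CPM untreated, 13.7 to 23.7 CPM with LPS and 6.19 to 13.5 CPM with LPS + BMS, and the macrophage markers to 11900 to 12300, 6100 to 6220 and 5800 to 6040 CPM. The part of other cells in the results was not tested. The depth, estimated from the steps between low values, was about 1.83 to 5.05 M reads on the listed genes. LPS replicate 1 was the shallowest library and untreated replicate 3 held 3.22 M, the fewest in its group. LPS replicate 1 was the lowest library of its group for 53 of the 79 members (67.1%, against 36.5% of all tested genes), and untreated replicate 3 for 39 of them (49.4%, against 35.5%).

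The ribosomal protein transcripts together made up a smaller part of the listed RNA after LPS. Their share of all listed CPM was 1.86%, 1.84% and 1.80% in the untreated libraries, 1.40%, 1.43% and 1.42% in the LPS libraries and 1.39%, 1.44% and 1.42% in the LPS + BMS libraries. Every untreated library was above every treated one, and the treated groups overlapped. The mean was 1.83% ± 0.0312 (SD, n = 3) untreated, 1.42% ± 0.0108 (SD, n = 3) with LPS and 1.42% ± 0.0251 (SD, n = 3) with LPS + BMS, so that the LPS share was 77.4% of the untreated one. The shallow LPS replicate 1 did not stand apart in this share. In bulk RNA, fewer cells of a type and less RNA per cell cannot be told apart, and quantile normalisation hides any change common to most transcripts.

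**Figure D1:**
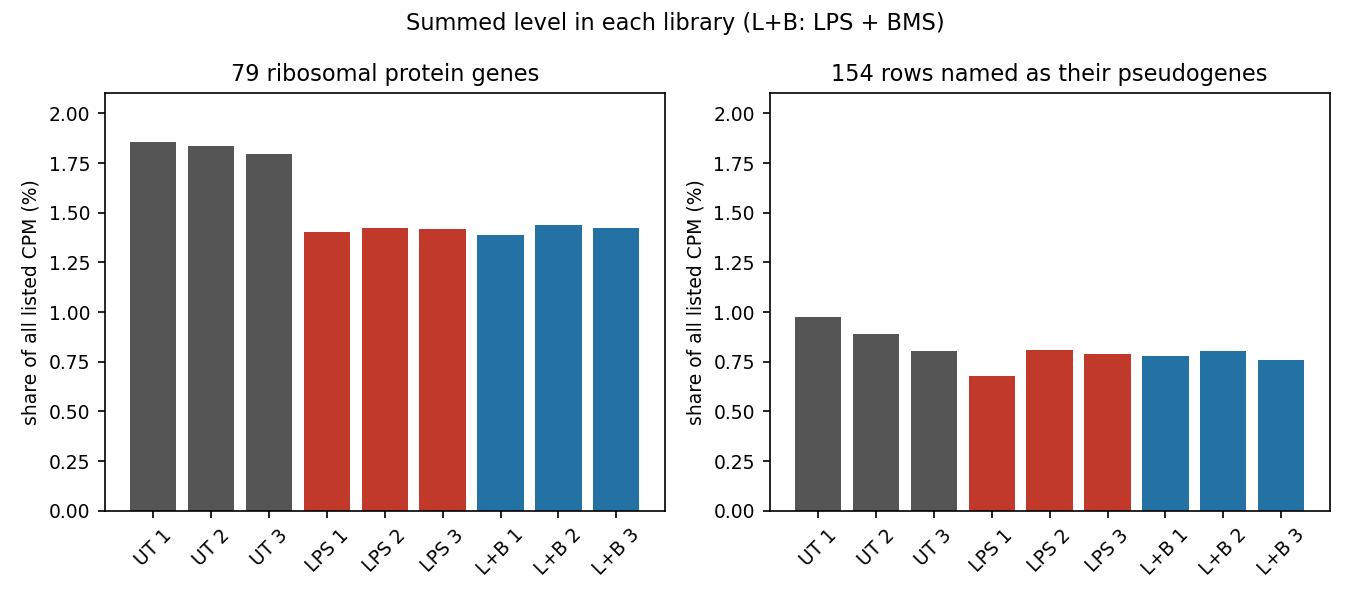
Share of all listed CPM (%) in each of the 9 libraries for the 79 members (left) and for 154 rows named as pseudogenes of ribosomal protein genes (right). Each bar is 1 library, and a few rows, such as Rpl28-ps1, are named after genes outside the 79. The members took 1.80 to 1.86% in untreated libraries and 1.39 to 1.44% in the treated ones.

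Abundant genes carried much of that drop. The summed level went from 18060 CPM untreated to 13980 CPM with LPS. Rplp1, an acidic protein of the large-subunit stalk that recruits the translation factors, accounted for 13.6% of the difference. Rps20, a protein of the small-subunit head, accounted for 10.9%, Rpl27a for 8.43% and Rpl23 for 6.93%. These 4 genes together accounted for 39.9% of the difference, and the 10 genes with the largest drops in CPM for 67.7%. Untreated, Rplp1, Rps20, Rpl27a and Rpl23 already held 1346, 1328, 1901 and 930.9 of the 18060 CPM. A sum of CPM gives abundant genes more weight, and these genes were picked by the size of their drop. The mean CPM was lower in 48 members and higher in 31.

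Across the list LPS was followed by lower levels of 22 members and higher levels of 5, with 52 not called (limma, Benjamini-Hochberg adjusted p under 0.05 over all tested genes). The 22 lower members are 27.8% of the list, against 25.4% of all tested genes called lower. The 5 higher members are 6.33%, against 21.5% of all tested genes. The share called lower was thus near that of all genes, while the share called higher was below it. The median difference was -0.21 log2, against -0.06 over all tested genes. All 3 LPS libraries lay below all 3 untreated ones for 20 members (all tested genes, 28.9%) and above them for 8 (all tested genes, 23.7%). Without LPS replicate 1, there were 9 higher and 22 lower members and the median was -0.07. In that fit 22.6% of all tested genes were higher and 26.9% lower. Without untreated replicate 1 the median was -0.11. Left out in turn, each of the 9 libraries left 13 of the 22 lower calls and 4 of the 5 higher ones in every fit.

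**Figure D2:**
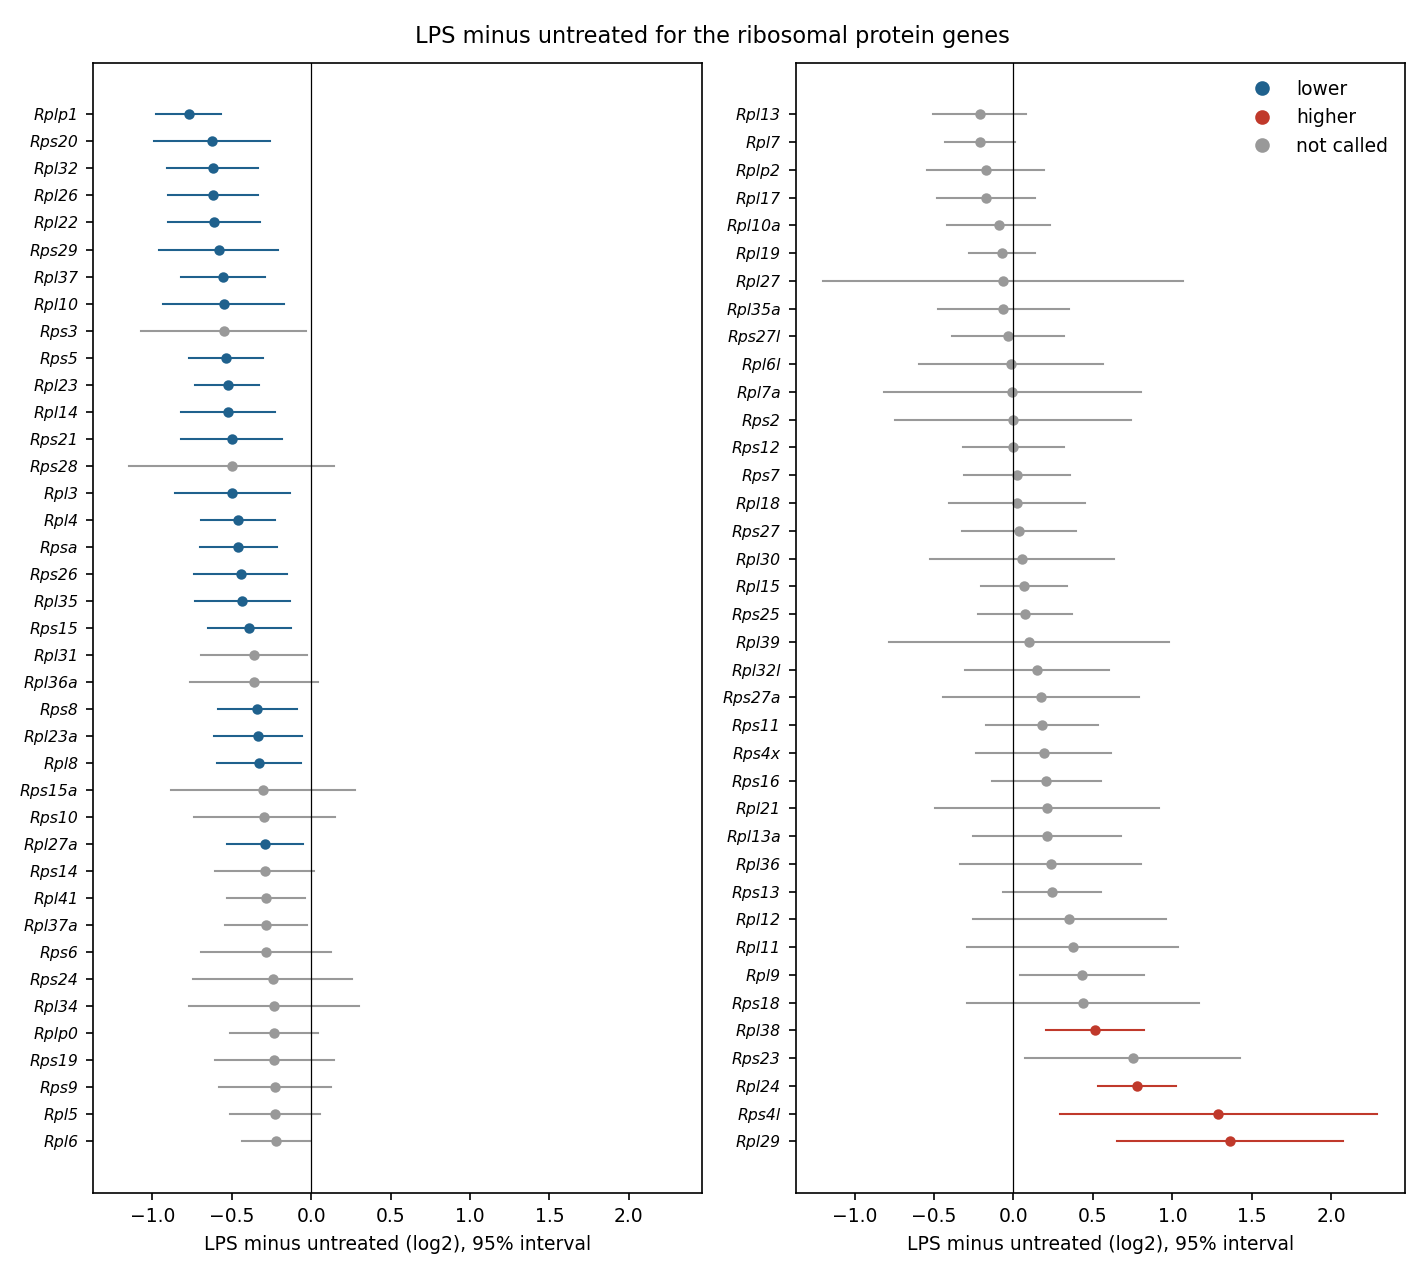
LPS minus untreated (log2) for 77 of the 79 members, sorted, with the 95% interval of the limma fit; colour marks members called lower, higher or neither. The values run from -0.77 for Rplp1 to 1.36 for Rpl29, and no called fall reaches 2-fold.

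The direction differed with the level of the gene. Of the 27 most abundant members, at 7.17 to 10.64 log2 CPM over all libraries, 17 were called lower and 0 higher, that is 63% lower, against 39.1% lower and 28.7% higher among the 811 genes in the same range of levels. In the middle of the range 5 of 26 were lower and 1 higher (19.2% and 3.85%), against 30.3% and 28.4% of 1842 genes of like level. Of the 26 least abundant members, at 2.16 to 5.51 log2 CPM, 0 were lower and 4 were higher (0% and 15.4%). Among 6475 genes of like level 25.2% were lower and 21.9% higher, so both shares of the members were below theirs. All 27 of the most abundant members had a negative difference, and 19 of the 26 least abundant had a positive one. Across the 79 genes the difference and the mean level had a Pearson r of -0.77 and a Spearman rho of -0.81; the points share libraries and are not independent, and the mean level includes the libraries compared.

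**Figure D3:**
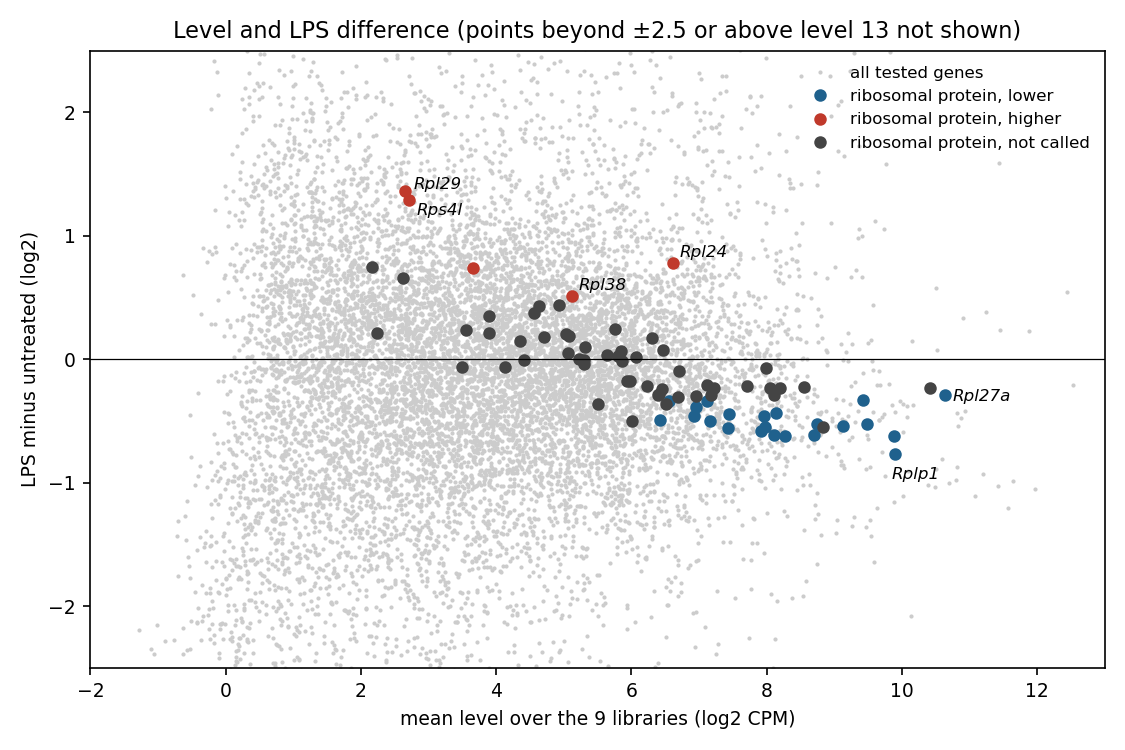
LPS minus untreated (log2) against the mean level over the 9 libraries (log2 CPM) for all tested genes (grey) and the 79 members (coloured by call). The 17 called falls above 7.17 log2 CPM lie at the right, and 4 of the 5 called rises lie at or below 5.51 log2 CPM; Rpl24 lies in the middle of the range.

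Among the stalk proteins Rplp1, the most abundant of them, had the lowest difference with LPS. Rplp1 (ENSMUSG00000007892, chr9:61913284-61914542, minus strand, GRCm38) read 10.40 log2 CPM in each of the 3 untreated libraries, where it held the same rank, and 9.63, 9.52 and 9.72 in the LPS libraries. The groups did not overlap. The difference was -0.77 ± 0.095 (SE), a fall to 0.586-fold (adjusted p = 1.92e-05). Rplp0, the scaffold of the stalk, differed by -0.23 (adjusted p = 0.159) and passed without LPS replicate 2, at -0.35. Rplp2, the partner of Rplp1, differed by -0.18 (adjusted p = 0.426); with 1 library left out its value ran from -0.001, without untreated replicate 3, to -0.345, without untreated replicate 2, and was not called. Of the 4 stalk genes, with Rpl12 at its base, 1 was called.

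Proteins at the exit tunnel, through which the new chain leaves the large subunit, were called lower in 5 of 9 cases and higher in 0. Among all tested genes 25.4% were lower and 21.5% higher, and 39.1% were lower in the level range of the most abundant members. Of the 27 most abundant members themselves 63% were lower and 0% higher, so the falls were not particular to the exit tunnel. Rpl23a, 1 of the 5 falls at the exit tunnel, lay below the level range of those 27 at 6.56 log2 CPM. Its call was lost in 7 of the 9 fits with a library left out. Rpl26, which takes part in the ufmylation of ribosomes at the endoplasmic reticulum, was at 8.57, 8.58 and 8.48 log2 CPM untreated and at 8.25, 7.68 and 7.86 with LPS. The LPS libraries all lay lower, LPS replicate 1 the least so, and the difference was -0.62 ± 0.131 (SE; adjusted p = 0.0017). Rpl22, a protein of the subunit surface near the tunnel, was at 9.15, 9.02 and 8.97 untreated and at 8.08, 8.62 and 8.60 with LPS. Here LPS replicate 1 was the lowest, and the difference was -0.61 ± 0.135 (SE; adjusted p = 0.00212). Without that library it was -0.43 and still called. Rpl35, which sits beside the tunnel exit, differed by -0.44 ± 0.139 (SE; adjusted p = 0.0203), and its groups overlapped, since LPS replicate 1 at 8.44 lay above the lowest untreated value of 8.43. Leaving out untreated replicate 2 (-0.44) or 3 (-0.38), or LPS replicate 2 (-0.31) or 3 (-0.38), took Rpl35 out of the calls.

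Other large-subunit proteins fell as well. Rpl32 was at 8.40, 8.70 and 8.73 log2 CPM untreated and at 7.80, 8.08 and 8.09 with LPS, with no overlap, a difference of -0.62 ± 0.132 (SE; adjusted p = 0.00172). Rpl23 (chr11, minus strand), whose protein also binds MDM2, read 9.85, 9.88 and 9.85 untreated and 9.49, 9.27 and 9.25 with LPS, also apart, and differed by -0.53 ± 0.093 (SE; adjusted p = 0.000431). Rpl14 differed by -0.52 (adjusted p = 0.0066). Rpl3, which lies close to the peptidyl transferase centre, differed by -0.50 (adjusted p = 0.0273) with overlapping groups. Its call was lost without untreated replicate 2 (-0.49) or 3 (-0.39) and without LPS replicate 2 (-0.43) or 3 (-0.39).

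Rpl27a was the most abundant member, at 10.81, 10.81 and 11.05 log2 CPM untreated and 10.81, 10.51 and 10.48 with LPS. LPS replicate 1 equalled 2 of the untreated libraries. The difference was -0.29 ± 0.11 (SE; adjusted p = 0.0444), just past the threshold, and 7 of the 9 fits with a library left out did not call it. Those 7 lacked untreated replicate 2 (-0.33) or 3 (-0.21), LPS replicate 2 (-0.25) or 3 (-0.23), or any single LPS + BMS library (-0.29 in each).

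Of the small-subunit members 8 of 32 were lower and 2 higher, against 14 and 3 of the 47 large-subunit members. The shares called lower, 25% and 29.8%, were near the 25.4% of all tested genes, and the shares called higher, 6.25% and 6.38%, were below their 21.5%. Rps20 (ENSMUSG00000028234, chr4:3831334-3835665, minus strand, GRCm38) was at 10.16, 10.42 and 10.52 log2 CPM untreated and at 10.21, 9.37 and 9.65 with LPS. LPS replicate 1 lay within the untreated range and the other 2 LPS libraries lay below it. The difference was -0.62 ± 0.17 (SE; adjusted p = 0.00861), and without LPS replicate 1 it was -0.855. Rps29, a zinc-binding protein of the small subunit, was at 8.34, 8.27 and 8.10 untreated and at 7.165, 8.001 and 7.806 with LPS, without overlap. Its difference was -0.58 ± 0.174 (SE; adjusted p = 0.0143), and -0.335 without LPS replicate 1, the lowest of the group. Rpsa, also known as the laminin receptor, differed by -0.46 ± 0.112 (SE; adjusted p = 0.00436).

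Some members known for roles outside the ribosome did not pass. Rps3, which also occurs in NF-κB complexes, was at 9.29, 9.09 and 8.83 log2 CPM untreated and at 7.79, 9.01 and 8.76 with LPS. LPS replicate 1 was the lowest. The difference was -0.55 (adjusted p = 0.0771), and it was -0.19 without LPS replicate 1 and -0.79, which was called, without LPS replicate 2. Rps6, the substrate of the S6 kinases downstream of mTORC1, differed by -0.28 (adjusted p = 0.244) and, without LPS replicate 1, by -0.54, which was called; without LPS replicate 2 it differed by -0.095. Rpl13a, known from the interferon-activated inhibitor of translation in myeloid cells, differed by 0.21 (adjusted p = 0.446), and by 0.039 without LPS replicate 2 and 0.366 without LPS replicate 1. Rps27a, made as a fusion with ubiquitin, differed by 0.17 (adjusted p = 0.657), and by -0.143 without untreated replicate 3 and 0.511 without LPS replicate 1. None of these 4 values was called.

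Rpl5 and Rpl11, which bind 5S ribosomal RNA and can inhibit MDM2 when ribosome assembly is disturbed, were not called. Rpl5 differed by -0.23 (95% interval -0.51 to 0.06) and Rpl11 by 0.37 (-0.29 to 1.04). With 1 library left out Rpl5 ran from -0.319 to -0.113 and Rpl11 from 0, without untreated replicate 3, to 0.663, without untreated replicate 1. Of the 4 X-linked members 1 was called, Rpl10, at -0.55 (adjusted p = 0.0207); it was not called without untreated replicate 1 (-0.44) or 2 (-0.51) or LPS replicate 1 (-0.37).

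Rpl29, Rps4l, Rpl24 and Rpl38 were among the 5 members that rose with LPS. Rpl24 (ENSMUSG00000098274, chr16:55966275-55971435, plus strand, GRCm38), part of a bridge between the subunits, was the most abundant of them, at 6.19, 5.99 and 6.27 log2 CPM untreated and at 6.91, 6.93 and 6.94 with LPS. The groups lay far apart beside their spread, with a difference of 0.78 ± 0.113 (SE; 1.72-fold, adjusted p = 7.83e-05). Rpl29, a large-subunit protein also known to bind heparin, was at 2.07, 2.05 and 1.06 untreated and at 2.68, 3.32 and 3.27 with LPS. The groups did not overlap, and the rise of 1.36 ± 0.33 (SE; adjusted p = 0.00411) is the largest of the list. Without untreated replicate 3, the lowest library, it was 1.03 and still called.

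Rpl38, needed in the mouse embryo for the translation of Hox mRNAs, was at 4.83, 4.68 and 4.95 log2 CPM untreated and at 5.39, 5.44 and 5.16 with LPS. Its groups were also apart, and the difference was 0.51 ± 0.143 (SE; adjusted p = 0.0098). Summed with the rows named as its pseudogenes, Rpl38 differed by 0.02 and was not called. Untreated, Rpl38-ps1 was at 6.69 ± 0.244 (SD, n = 3) and Rpl38-ps2 at 5.82 ± 0.165, both above Rpl38 itself.

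**Figure D4:**
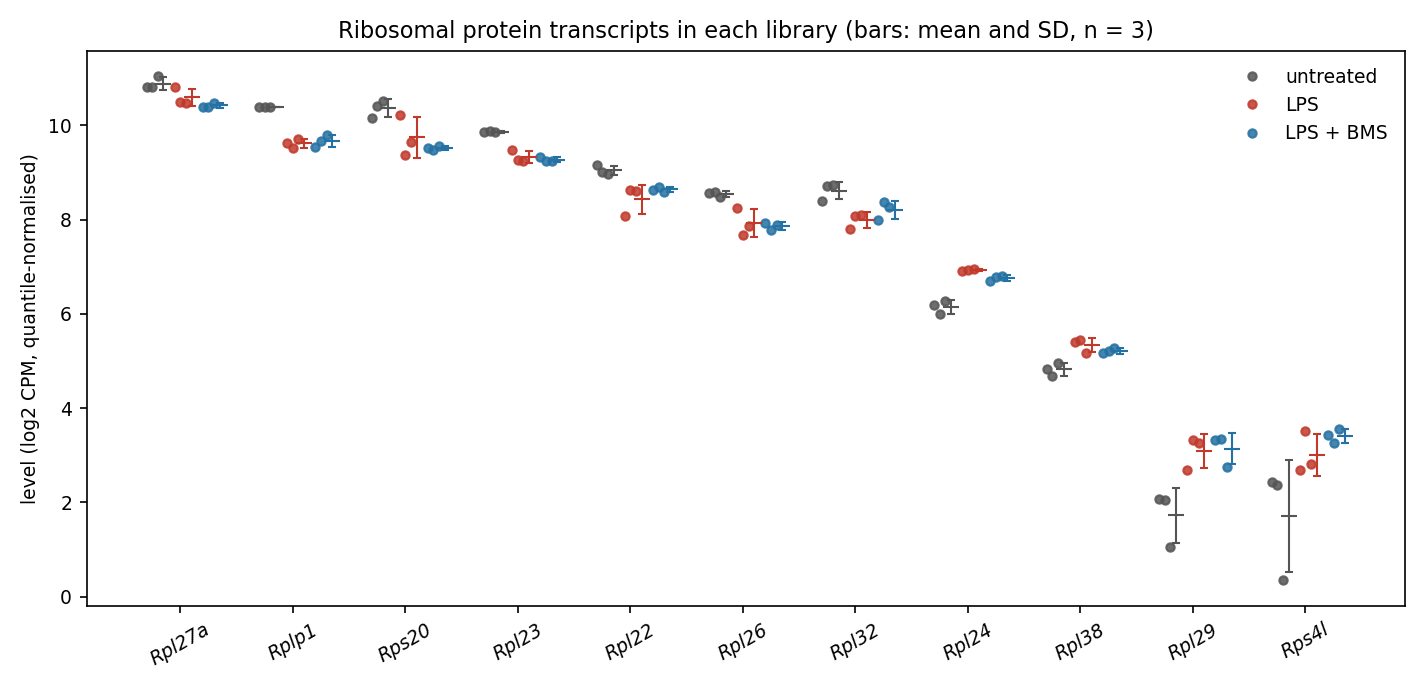
Level (log2 CPM, quantile-normalised) in each library for 11 members, grey untreated, red LPS, blue LPS + BMS; the dash and bar are mean and SD of 3 libraries. The treated libraries of Rplp1, Rpl23 and Rpl24 lie apart from the untreated ones, and Rps4l has 1 untreated library at 0.34.

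Rps4l and Rps27l stand on the list beside their parents, Rps4x and Rps27. Rps4l, an annotated transcribed pseudogene related to the X-linked Rps4x, was at 2.42, 2.37 and 0.34 log2 CPM untreated and at 2.68, 3.51 and 2.82 with LPS. Untreated replicate 3 stood far below the others. The difference was 1.29 ± 0.463 (SE; adjusted p = 0.0352) and was 0.61 and not called without that library. Without LPS replicate 2 (1.04), LPS replicate 3 (1.38) or LPS + BMS replicate 1 (1.29) it was not called either. Rps4x itself differed by 0.19 (adjusted p = 0.457), and by -0.17 once summed with its pseudogene rows. Rps27l, a paralog induced by p53, differed by -0.04 (adjusted p = 0.881) and its parent Rps27 by 0.04 (adjusted p = 0.883).

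BMS303141 given before LPS left no member called against LPS alone: 0 of 79 in either direction by limma, where 117 of all tested genes (0.959%) were called higher and 141 (1.16%) lower. At an unadjusted p under 0.05 there were 6 members, against 14.9% of all tested genes. The median difference of the list was 0.03 log2. The LPS + BMS libraries lay above all LPS libraries for 4 members (all tested genes, 10.1%) and below them for 5 (all tested genes, 11.2%).

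The 6 members with the smallest unadjusted p were named after their values were seen. Rps24, a small-subunit protein mutated in some Diamond-Blackfan anaemias, was at 5.60, 6.36 and 6.36 log2 CPM with LPS and at 6.95, 7.13 and 6.63 with LPS + BMS. The groups did not overlap, LPS replicate 1 was low, and the difference was 0.79 ± 0.231 (SE; adjusted p = 0.108). It passed at 0.59 (adjusted p = 0.0329) when libraries were weighted by their fit, and at 0.54 (adjusted p = 0.0262) with LPS replicate 1 and untreated replicate 3 both left out. With LPS replicate 1 alone left out it was 0.54 and did not pass (adjusted p = 0.23). Rpl3 was at 6.75, 6.28 and 6.21 with LPS and at 5.99, 5.71 and 6.09 with LPS + BMS, lower in all 3 libraries, with a difference of -0.48 ± 0.168 (SE; adjusted p = 0.188).

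Rps6 differed by -0.43 between LPS + BMS and LPS (adjusted p = 0.312), Rpl4 by 0.28 (adjusted p = 0.244) and Rps27a by 0.63 (adjusted p = 0.329). Without LPS replicate 1 the difference was -0.18 for Rps6, 0.22 for Rpl4, 0.29 for Rps27a and -0.32 for Rpl3. Rpl27 differed by 1.13 (adjusted p = 0.335). Its LPS values were 1.48, 3.92 and 3.88, so that LPS replicate 1 alone was low, and its LPS + BMS values were 4.42, 4.42 and 3.83. Without LPS replicate 1 the difference for Rpl27 was 0.33 (adjusted p = 0.72). For Rplp1 the 95% interval of this difference ran from -0.16 to 0.25, and for Rpl24 from -0.41 to 0.07.

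Compared with untreated cells, LPS + BMS gave 23 lower members (29.1%, against 25.6% of all tested genes) and 8 higher ones (10.1%, against 21.5%), with a median of -0.11 log2. This comparison shares its untreated libraries with the first and its LPS + BMS libraries with the second. The largest falls were of Rpl3 (-0.98 ± 0.168, SE), Rps20 (-0.85 ± 0.17, SE), Rpl14 (-0.76), Rplp1 (-0.73), Rps6 (-0.72) and Rpl35 (-0.71), all with adjusted p of 0.00743 or less, and all 6 were called in each of the 9 fits with a library left out. Summed with its pseudogene rows, Rps6 differed by -0.25 and was not called.

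Large rises against untreated cells were of Rps4l (1.70), Rpl29 (1.42), Rps23 (0.86), Rpl11 (0.81) and Rps27a (0.80). Rps27a was at 6.43, 6.17 and 5.36 log2 CPM untreated and at 6.85, 6.93 and 6.58 with LPS + BMS, apart (adjusted p = 0.0353), with untreated replicate 3 the lowest. Rpl29 and Rps4l were called in each of the 9 fits with a library left out, while Rpl11 was lost in 6 of them and Rps23 and Rps27a in 4 each. Without untreated replicate 3 the difference was 0.44 for Rpl11, 0.58 for Rps23 and 0.48 for Rps27a, all not called, and 1.02 for Rps4l and 1.08 for Rpl29, both called. The count of higher members depended on single libraries. It was 4 without untreated replicate 2, 4 without untreated replicate 3, 3 without LPS + BMS replicate 1 or 2, 4 without LPS + BMS replicate 3 and 15 without LPS replicate 1. The share of all tested genes called higher moved the same way, to 19.2% without untreated replicate 3 and 24.1% without LPS replicate 1.

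The rows of low level need care with near-identical copies. The genome holds many processed pseudogenes of ribosomal protein genes, and how reads with several matches were counted is not given in the sources used here. For each gene 1 transcript was chosen by coding type, principal rank and support level, with the shortest taken at a tie. In its last 200 bases, 56 of the 79 members shared at least 1 stretch of 50 bases with another annotated gene. The other 23 shared none, and the longest chosen transcripts, of 5130 and 3706 bases, were both among these. The 23 held 7 lower and 0 higher calls with LPS, and the 56 held 15 lower and 5 higher calls. That is 30.4% and 26.8% lower, near the 25.4% of all tested genes, and 0% and 8.93% higher, against 21.5%. The median levels of these sets were 6.68 and 6.36 log2 CPM. Annotated ends can differ from those used in macrophages.

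Rps23, a protein of the decoding centre, was the least abundant member, at 1.98, 1.84 and 1.06 log2 CPM untreated and at 2.20, 2.30 and 2.63 with LPS (difference 0.75, adjusted p = 0.0648; without untreated replicate 1 it was 0.93 and was called). The row Rps23-ps1 was at 8.55 ± 0.714 (SD, n = 3) untreated. Summed with its pseudogene rows, Rps23 differed by -0.17 and Rpl13a by -0.33, in each case the other way from the single row. Both are among the 23 members that shared 0 stretches of 50 bases. The 154 rows named as pseudogenes together held 0.889% ± 0.0831 (SD, n = 3) of the listed CPM untreated, 0.758% ± 0.0696 with LPS and 0.780% ± 0.0239 with LPS + BMS, and the untreated and LPS libraries overlapped.

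Promoters of 57 members were in the RefSeq table (GRCm38.p6), each 300 bases long with 250 before the annotated start. A run of at least 4 C or T bases covered the annotated start in 38.6% of these, against 13.6% of all 27025 promoters, and a run of at least 8 in 26.3% against 3.82%. The following 75 bases, 60 before and 15 from the start onward, show members called with LPS, first with and then without such a run. Rps6 is the exception: it was not called with LPS and was called lower with LPS + BMS against untreated. Capitals mark the run of C and T over the start, and the last 3 have none there.
Rpl14 (chr9:120571457-120571531, plus strand): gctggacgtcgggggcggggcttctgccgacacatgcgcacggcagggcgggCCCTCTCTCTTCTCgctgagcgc
Rpl35 (chr2:39005117-39005191, minus strand): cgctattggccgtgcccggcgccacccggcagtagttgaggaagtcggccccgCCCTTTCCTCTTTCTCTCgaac
Rps6 (chr4:86857353-86857427, minus strand): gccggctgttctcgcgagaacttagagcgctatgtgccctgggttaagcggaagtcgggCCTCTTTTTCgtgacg
Rpl38 (chr11:114668520-114668594, plus strand): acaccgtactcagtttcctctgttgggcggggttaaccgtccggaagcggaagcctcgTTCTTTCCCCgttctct
Rpl23 (chr11:97782425-97782499, minus strand): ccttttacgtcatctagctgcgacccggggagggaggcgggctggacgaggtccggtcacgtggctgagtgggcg
Rpl22 (chr4:152325666-152325740, plus strand): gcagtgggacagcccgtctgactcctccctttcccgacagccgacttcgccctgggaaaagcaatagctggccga
Rpl24 (chr16:55966215-55966289, plus strand): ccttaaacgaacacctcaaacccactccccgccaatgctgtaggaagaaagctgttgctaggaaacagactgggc

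The run was 14 bases long in Rpl14 and 18 in Rpl35, which fell, and 10 in Rpl38, which rose. It was also 10 in Rps6, which was not called with LPS. Rpl23 and Rpl22 fell and Rpl24 rose with no run over the annotated start. By LPS call, a run of at least 4 was present in 4 of 13 lower members, 1 of 2 higher members and 17 of 42 members not called. Annotated starts can lie some bases away from the start used, and no match says only that the letters are not at that place.

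Other motifs were searched on both strands of the 300 bases, and they can overlap. CCGGAAG, the core of ETS-family sites, was in 40.4% of the member promoters and 9.12% of all promoters. CTTTCC was in 45.6% against 26.3%, AAGATGG, the core of YY1 sites, in 14.0% against 6.48%, and GGGCGG, the GC box, in 59.6% against 35.9%. TATAAA was in 10.5% against 14.2%. CCGGAAG was present in 7 of 13 lower members, 1 of 2 higher members and 15 of 42 members not called, and a match is a description of the letters, not a measured site.

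Other transcripts of the TOP class were also tested. Of 22 elongation factors and other TOP transcripts 12 were lower with LPS and 2 higher (54.5% and 9.09%). Among all tested genes 25.4% were lower and 21.5% higher. In the level range of the most abundant members 39.1% of all genes were lower and 28.7% higher. The median of the 22 was -0.37 log2. Eif4b, a cofactor of the helicase that unwinds mRNA leaders, fell by 1.16 on the log2 scale (SE 0.117, adjusted p = 2.64e-06). Gas5, a non-coding TOP transcript that hosts small nucleolar RNAs, fell by 0.84 (SE 0.104, adjusted p = 1.99e-05). Of 6 genes of the ribosome outside the symbol rule, Fau, which encodes a ubiquitin-like protein fused to a small-subunit protein, fell by 0.42 (adjusted p = 0.003) and Rpl36al rose by 0.63 (adjusted p = 0.0406).

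Factors that assemble ribosomes moved the other way from the abundant ribosomal proteins. Of 66 ribosome biogenesis genes 36 were higher with LPS and 3 lower (54.5% and 4.55%), against 21.5% and 25.4% of all tested genes. The median of the 66 was 0.51 log2. Rrs1, which brings the 5S particle into the large subunit, rose by 2.15 (SE 0.16, adjusted p = 1.3e-07). Eif6, which keeps new large subunits from joining small ones too early, rose by 1.65 (SE 0.164, adjusted p = 2.44e-06). Of 12 chaperones of ribosomal proteins 6 were higher and 2 lower (50% and 16.7%), against the same shares of all tested genes. Ltv1, which helps small subunits mature, rose by 1.20 and Nap1l1, also a TOP transcript, fell by 1.04.

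**Figure D5:**
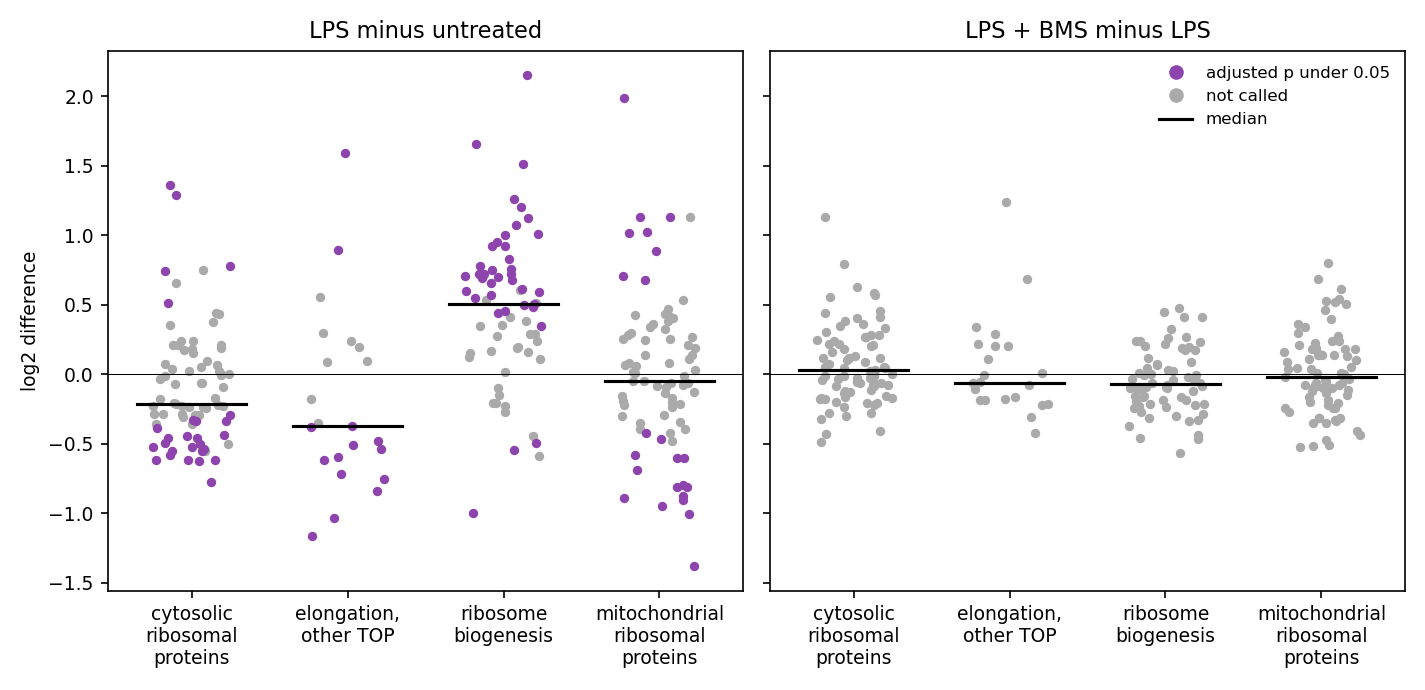
Log2 difference for each gene of 4 groups, LPS minus untreated (left) and LPS + BMS minus LPS (right); purple points have an adjusted p under 0.05, the line is the median. With LPS the median is -0.21 for cytosolic ribosomal proteins, -0.37 for other TOP transcripts, 0.51 for ribosome biogenesis and -0.05 for mitochondrial ribosomal proteins, and the right panel holds 0 called genes.

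Regulators of ribosome production were mixed. In the RNA polymerase I and III list 4 of 29 genes were higher and 8 lower (13.8% and 27.6%). Among all tested genes 21.5% were higher and 25.4% lower. Polr3d, a subunit of RNA polymerase III, rose by 2.30 (adjusted p = 6.41e-08) and Gtf3a, which is needed for 5S RNA transcription, fell by 1.23 on the log2 scale (adjusted p = 7.15e-05). In the list of MYC and mTORC1 control 9 of 27 were higher and 6 lower (33.3% and 22.2%), the latter near the 25.4% of all tested genes. Larp1, the protein that binds TOP motifs, rose by 1.44 (SE 0.107, adjusted p = 1.29e-07), and Mxi1, a MAX partner that opposes MYC, fell by 2.04 (adjusted p = 1.33e-06). In the list of stalled ribosome rescue and surveillance 6 of 15 were higher and 3 lower (40% and 20%), against 21.5% and 25.4% of all tested genes. In that list Zfp598, which senses collided ribosomes, rose by 1.32 (adjusted p = 0.000249). The list also counts Cdkn1a, a p53 target and not itself a rescue factor, which rose by 3.10 (adjusted p = 2e-08).

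Of the 77 mitochondrial ribosomal protein genes, which serve the separate ribosome of that organelle, 8 were higher and 15 lower with LPS. That is 10.4% and 19.5%, against 21.5% and 25.4% of all tested genes. Their median was -0.05 log2, against -0.06 over all tested genes. In LPS + BMS against LPS, 0 genes of the 7 pathway lists and 0 mitochondrial ribosomal protein genes were called.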

How the data were processed

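Messenger RNA was measured in 9 libraries, 3 per group. Per the labels' protocols, libraries were made with the QuantSeq 3′ forward kit. Per the submitters' processing notes, the build was GRCm38 (mm10) and the tools included featureCounts 1.5.1, STAR 2.5.2b, edgeR, limma and MultiQC, whose roles are not stated. Annotation release, strand and the handling of reads with several matches: not given in the sources used here. What the authors deposited are scores on a log2 scale, read from the values as log2 CPM quantile-normalised across libraries: their powers of 2 sum to 987472 to 987498 in each. Depths are approximate and cover listed genes only.

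Symbols matched 12181 of 12204 identifiers. Genes that reached 0 log2 CPM in 3 or more libraries were tested with limma 3.58.1 (R 4.3.3) in 1 model of all libraries with a mean per group, a mean trend and two-sided tests, adjusted by Benjamini-Hochberg over 12196 genes and called under 0.05. SE is moderated. The members and all lists were chosen with earlier results of these data known. Members named are the most and least abundant, the 6 largest called changes each way in each comparison, the stalk proteins, Rpl5, Rpl11, Rps6, Rps3, Rpl13a, Rps27a, Rpsa and paralogs with their parents; from each pathway list, the 2 called genes with the smallest p in LPS minus untreated and in LPS + BMS minus LPS. Rpl4, Rpl10, Rpl23, Rpl23a, Rpl27, Rps24 and pseudogene rows were added after their values were seen. Single values of 2 members are not reported here; both are in every count. The alternatives covered the replicate block, low-value filters, normalisation, variance model, library weights, samples in the fit, thresholds and each library left out. The script was tested on simulated data in which 11996 of 12196 genes were unchanged. Of planted LPS changes it recovered 13.4% at 1.5-fold, 37.3% at 2-fold and 83.3% at 4-fold, with 7 unchanged genes called. In the data LPS changed many more genes, with 2628 called higher and 3102 lower. The adjustment was therefore less strict there, and the simulated rates do not give the recovery in that comparison. A member that was not called is still not shown to be unchanged.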

Additional observations from a re-analysis of the deposited data

How the results depend on the processing

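Under the normalisation alternatives no value printed here reversed. Counts of called members moved by over 1.5 times as follows. For LPS minus untreated there were 12 lower members with no mean trend, 10 higher with library weights, 2 higher and 0 lower with a 2-fold minimum, and 11 lower at an adjusted p under 0.01. For LPS + BMS minus LPS 1 member was higher with library weights, and 1 with LPS replicate 1 and untreated replicate 3 both left out. For LPS + BMS minus untreated the higher members numbered 5 with a filter of 10 CPM, 14 with library weights, 13 with only the compared groups in the fit, 3 with a 2-fold minimum (and 0 lower) and 3 at an adjusted p under 0.01. Among the 23 members with no shared stretch, fewer genes by construction, 0 were higher and 7 lower with LPS, and 3 were higher and 8 lower with LPS + BMS, against untreated.

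With each library left out in turn, the higher members numbered 4 to 9 for LPS minus untreated and 3 to 15 for LPS + BMS minus untreated, and the median for LPS minus untreated ran from -0.246 to -0.066. Some differences that were not called changed sign. For LPS minus untreated the range was 0 to 0.663 for Rpl11, -0.12 to 0.172 for Rps27, -0.143 to 0.511 for Rps27a and -0.128 to 0.094 for Rps27l. For LPS + BMS minus untreated it was -0.108 to 0.093 for Rps27 and -0.11 to 0.256 for Rps4x. For LPS + BMS minus LPS it was -0.108 to 0.22 for Rpl13a, -0.185 to 0.098 for Rpl26, -0.152 to 0.245 for Rpl29, -0.121 to 0.081 for Rpl5, -0.19 to 0.036 for Rplp0, -0.015 to 0.106 for Rplp1, -0.097 to 0.094 for Rplp2, -0.411 to 0.009 for Rps20, -0.198 to 0.095 for Rps27, -0.041 to 0.377 for Rps29 and -0.073 to 0.039 for Rpsa.

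Library weights turned Rps27l (0.038) for LPS minus untreated and Rpl26 (0.016), Rpl29 (-0.096), Rplp1 (-0.014), Rplp2 (0.025) and Rps23 (-0.056) for LPS + BMS minus LPS. Leaving out both LPS replicate 1 and untreated replicate 3 turned Rps27l (0.102) for LPS minus untreated, Rps4x (-0.11) for LPS + BMS minus untreated and, for LPS + BMS minus LPS, Rpl13a (-0.108), Rpl26 (0.098), Rpl29 (-0.152), Rplp2 (0.094), Rps20 (0.009) and Rps29 (-0.041). Summing members with their pseudogene rows turned Rpl13a (-0.332), Rps23 (-0.167) and Rps4x (-0.167) for LPS minus untreated, Rpl13a (-0.085) for LPS + BMS minus LPS, and Rpl13a (-0.416) and Rps4x (-0.395) for LPS + BMS minus untreated. The cause was not tested. The last 2 settings and the set with no shared stretch were chosen after seeing the data.

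The labels do not say whether the replicate numbers pair the libraries. Deviations of same-numbered libraries from their group means correlated at -0.297 to 0.01 between untreated and LPS. The values were -0.023 to 0.155 between untreated and LPS + BMS and -0.012 to 0.165 between LPS and LPS + BMS. Differently numbered libraries reached 0.294, for untreated replicate 3 with LPS replicate 1. Deviations from a mean of 3 libraries are not independent, so these values cannot decide whether the numbers mark a shared mouse or day. With the replicate number as a block there were 5 higher and 19 lower members for LPS minus untreated, 6 and 22 for LPS + BMS minus untreated and 0 for LPS + BMS minus LPS. Depth limits the rare members most: a median gene rested on some 26.8 reads in the shallowest library and 72.7 in the deepest.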

Other observations

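The rows named as pseudogenes of ribosomal protein genes split by level in the same direction as the genes. Of 154 rows 14 were higher and 12 lower with LPS (9.09% and 7.79%), against 21.5% and 25.4% of all tested genes, and the median difference was 0.20 log2. The abundant rows are among the lower ones: Rps25-ps1 was at 10.20 ± 0.097 (SD, n = 3) log2 CPM untreated and differed by -0.34 (adjusted p = 0.00743), Rpl36-ps2 at 9.53 ± 0.203 differed by -0.59 (adjusted p = 0.00186), and Rps12-ps24 at 9.16 ± 0.315 differed by -0.61 (adjusted p = 0.00366). Among the higher ones Rps19-ps4, at 0.68 ± 0.985 (SD, n = 3) log2 CPM untreated, differed by 1.55 (adjusted p = 0.0126). Rps13-ps5, at 1.27 ± 0.839 untreated and with an SD of 1.203 with LPS, differed by 1.59 (adjusted p = 0.0248). Both lie close to the filter at 0 log2 CPM. The rows named here were picked after their values were seen, and the untreated level that places them also enters the difference.

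In LPS + BMS against LPS 1 of the 154 rows was called. Rpl18-ps2 was at 0.59 ± 0.497 (SD, n = 3) log2 CPM with LPS and at 2.81 ± 0.368 with LPS + BMS, a difference of 2.22 (adjusted p = 0.0112).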
